A study of Homo sapiens with 18 samples.

Results

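The open chromatin of parental HEK293T cells, an established human embryonic kidney line, was described from the 9933 regions that the authors found in both ATAC-seq replicates of these cells. ATAC-seq reads the DNA that a transposase can reach, and each region was an interval of raised signal called as a peak. The members were all regions of the parental replicate-intersected set, out of 24450 regions in the 2 such sets of the series; the other set, of 14517 regions, came from the UBR7 knockout cells of the study and was only counted. Of the 18 samples of the series, the description used 2 ATAC-seq and 3 RNA-seq libraries, all of parental genotype (no CRISPR-Cas9 edit) and with no treatment in the labels. Each ATAC-seq library was made from 5000 cells with 50 bp reads. RNA level was given as CPM, the reads of a gene scaled by the total of its library, for the 14177 genes of the deposited RNA table. The labels do not say whether the libraries came from separate cultures, so the spread between them may be technical. The labels of RNA libraries 1 and 2 carry different date codes and that of library 3 carries none. Differences between RNA libraries therefore cannot be told apart from differences of date. All samples formed 1 group, so no test between groups was made, and each value is a description with its spread over libraries.

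In cells most DNA is wrapped in nucleosomes, and the promoters and enhancers in use are kept open by transcription factors, remodelling enzymes and RNA polymerase. A promoter lies at the start of a gene and an enhancer can lie far from it. Many promoters of widely expressed human genes are rich in CpG and fire in both directions.

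The promoters of 8 genes on which the results turn are printed first, 5 whose starts were open in the set and 3 highly expressed genes whose starts were not. Each sequence is the 150 bases before the RefSeq gene start in the GRCh38.p14 assembly, 5′ to 3′ on the strand of the gene. Capitals mark CCAAT or its reverse complement ATTGG, the box bound by the factor NF-Y.
RPS4X (small ribosomal subunit protein, open, chrX:72277249-72277398, minus strand): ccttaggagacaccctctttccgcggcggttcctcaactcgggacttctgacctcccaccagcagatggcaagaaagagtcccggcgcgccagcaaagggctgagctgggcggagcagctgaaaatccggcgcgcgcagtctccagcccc
NPM1 (nucleophosmin, a nucleolar histone chaperone, open, chr5:171386966-171387115, plus strand): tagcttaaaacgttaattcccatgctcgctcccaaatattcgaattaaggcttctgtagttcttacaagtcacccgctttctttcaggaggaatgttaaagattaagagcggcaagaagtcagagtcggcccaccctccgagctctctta
RPS6 (small ribosomal subunit protein, open, chr9:19380237-19380386, minus strand): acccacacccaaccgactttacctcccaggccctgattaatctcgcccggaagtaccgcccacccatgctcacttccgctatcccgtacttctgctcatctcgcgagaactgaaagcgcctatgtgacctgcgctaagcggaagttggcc
NAA38 (LSM8 in RefSeq, an RNA-binding protein of the Sm-like family, open, chr7:118184014-118184163, plus strand): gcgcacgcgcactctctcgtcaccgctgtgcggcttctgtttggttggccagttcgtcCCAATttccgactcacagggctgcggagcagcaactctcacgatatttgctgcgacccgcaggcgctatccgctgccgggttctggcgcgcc
HIST1H2BJ (histone H2B, one gene of an open divergent pair, chr6:27132796-27132945, minus strand): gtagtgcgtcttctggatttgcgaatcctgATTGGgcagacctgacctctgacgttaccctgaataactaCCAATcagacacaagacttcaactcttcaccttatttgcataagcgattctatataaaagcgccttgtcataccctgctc
RPS3 (small ribosomal subunit protein, not open in the set, chr11:75399368-75399517, plus strand): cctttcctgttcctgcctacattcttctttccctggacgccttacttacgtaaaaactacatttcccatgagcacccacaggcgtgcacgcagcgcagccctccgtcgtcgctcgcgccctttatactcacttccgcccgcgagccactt
EEF2 (translation elongation factor, not open in the set, chr19:3985464-3985613, minus strand): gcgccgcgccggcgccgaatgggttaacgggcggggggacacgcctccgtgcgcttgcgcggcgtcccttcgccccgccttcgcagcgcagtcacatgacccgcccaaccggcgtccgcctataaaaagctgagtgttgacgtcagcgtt
GAPDH (glycolytic enzyme, not open in the set, chr12:6535114-6535263, plus strand): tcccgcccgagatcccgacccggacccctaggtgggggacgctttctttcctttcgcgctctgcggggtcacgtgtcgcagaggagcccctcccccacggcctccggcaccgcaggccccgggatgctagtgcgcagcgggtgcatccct
The NAA38 window held 1 CCAAT box and the HIST1H2BJ window held 2, while the windows of RPS4X, NPM1, RPS6, RPS3, EEF2 and GAPDH held 0. The NPM1 and HIST1H2BJ windows had a GC content of 44.7% each, against 69.3% for EEF2 and 71.3% for GAPDH. The region and gene positions that follow are those of the deposited files, in GRCh37-type coordinates, so the printed windows were joined to the regions by gene name and not by position. Open here means a region within 1 kb of the gene start, so a printed window need not lie in the region. The NPM1 region began 343 bases after the start in the RNA table and contained a start of the authors' deposited list of RefSeq-type starts. The printed NPM1 window and its GC content may therefore not be those of the open DNA.

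The regions were short and together covered 4.09 Mb. Their median width was 357 bases, with quartiles of 234 and 535 bases and a range of 2 to 2808 bases. Each region was exactly the bases shared by 1 peak of replicate 1 and 1 peak of replicate 2, and its score was the sum of the authors' scores of those 2 peaks. The 2 lists differed in size, with 10507 peaks in replicate 1 and 38529 in replicate 2, so replicate 1 set the limit of the shared set. A peak of replicate 2 met 94.0% of the replicate 1 peaks, and a peak of replicate 1 met 25.8% of the replicate 2 peaks. The numbers of ATAC-seq reads are not in the lists, so depth could not be set beside this difference.

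Many of these peaks were weak by the authors' own measure. The median −log10 q of the peaks was 1.07 in replicate 1 and 1.33 in replicate 2, and only 2133 of the 9933 regions (21.5%) had q of at most 0.05 in both replicates. Over the regions, the −log10 q of the 2 replicates had a Spearman correlation of 0.060, so a region that stood high in one library was little more likely to stand high in the other. The highest scores were clustered along the genome. Among 233 bins of 10 Mb with at least 20 regions, the median score was 131 at 140 to 150 Mb of chromosome 6 and 93 at 110 to 120 Mb of chromosome 7, against a median of 28 over the bins. In those 2 bins the median −log10 q was 8.30 and 7.14 in replicate 1 but 1.94 and 1.26 in replicate 2, so the high scores rested on 1 library.

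The open regions lay mainly at gene starts. With the start taken as the outer 5′ end of the gene in the RNA table, 4602 regions (46.3%) contained a start and 1916 more (19.3%) had one within 1 kb, so 6518 (65.6%) lay within 1 kb. A further 730 regions (7.35%) lay over 1 to 10 kb away. The remaining 2685 (27.0%) lay over 10 kb from every start and are called distal: 1186 at up to 50 kb and 1499 beyond. The distal share was 65.4% among the replicate 2 peaks alone. Most regions at starts served 1 gene, with 5374 near a single start, 1123 near 2 and 21 near 3 or more.

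Part of the distal class held starts that the RNA table does not name. In the authors' deposited list of 13176 RefSeq-type starts, 75.1% of the regions had a start within 1 kb. Of the 2685 distal regions, 779 (29.0%) lay within 1 kb of such a start and 1855 lay over 10 kb from these starts too. The centre of 1113 distal regions (41.5%) lay inside the body of a table gene, which cannot be divided into exon and intron here. Replicate 1 peaks were within 1 kb of a table start in 62.6% of cases and replicate 2 peaks in 26.2%, so the peaks found in replicate 2 alone were mostly away from starts.

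Regions at starts were wider than distal regions. The median width was 405 bases within 1 kb of a start and 262 bases in the distal class, a ratio of 1.55. The ratio was 1.45 among the peaks of replicate 1 and 2.89 among those of replicate 2. Score did not separate the classes, with medians of 28 for regions that contain a start and 27 for those over 50 kb away.

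**Figure D1:**
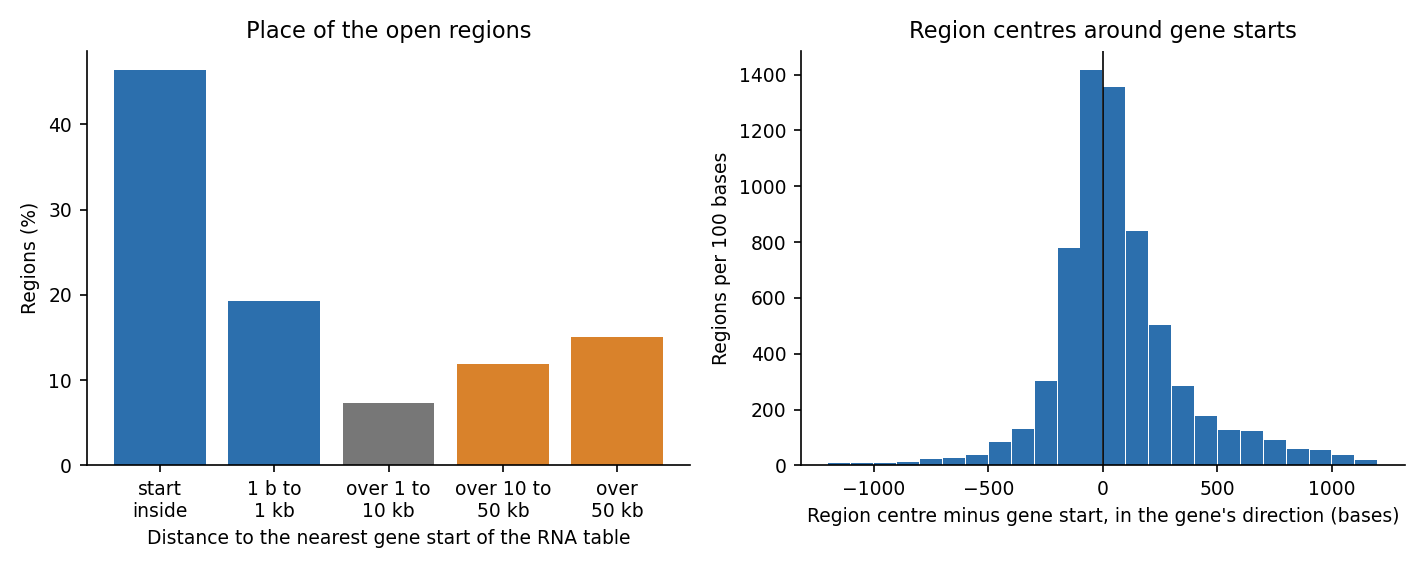
The left panel gives the percentage of the 9933 regions in each class of distance to the nearest gene start of the RNA table (blue within 1 kb, grey over 1 to 10 kb, orange distal). The right panel counts the centres of the 6518 regions within 1 kb of a start, per 100 bases, with the start at 0 and the gene to the right; the counts peak at the start and fall off more slowly on the gene's side.

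The regions sat across the start with a small shift into the gene. The centre lay at a median of 25.5 bases downstream, with quartiles of 83 bases upstream and 180.5 bases downstream, as the plot of region centres shows. For regions whose nearest gene was in no divergent pair, 57.8% of 5923 centres were downstream. For the 595 regions whose nearest gene had a neighbour starting the other way within 1 kb, 42.7% were downstream, so there the centre more often lay between the genes.

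Of the 14177 gene starts, 7641 (53.9%) had a region of the set within 1 kb and are called open. The same share was 54.5% with the replicate 1 peaks alone and 79.7% with the replicate 2 peaks alone; it was 29.0% with only the regions of the higher scores, split at the median, and 12.1% with q of at most 0.05 in both replicates. The 2 lists left 2844 starts (20.1%) with no peak of either replicate, and 3601 starts had a peak of replicate 2 only. The 15 genes of the mitochondrial chromosome had no region, since no region lay on that chromosome.

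Genes with an open start had higher RNA levels than the others in every library. The median level of the open genes was 33.7, 29.4 and 30.0 CPM in RNA libraries 1, 2 and 3, or 31.0 ± 2.32 CPM (SD, n = 3). The genes not open in the set had medians of 13.2, 10.2 and 9.52 CPM, or 11.0 ± 1.97 CPM (SD, n = 3). The ranges of the 2 classes over libraries did not overlap, and the difference of the medians of log2(CPM + 1) was 1.43 ± 0.14 (SD, n = 3). It was 0.67 when only regions with q of at most 0.05 in both replicates were kept, a limit chosen after seeing the data, and 2.16 without ATAC replicate 1. Among protein-coding genes the difference was 1.10 ± 0.09 (SD, n = 3). CPM is not corrected for gene length: in the shortest, middle and longest of 3 equal groups by gene span, the difference was 1.72, 1.33 and 0.98.

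The genes with a replicate 2 peak only lay between. Their median level was 17.2 ± 2.24 CPM (SD, n = 3), and that of the genes with no peak at the table start in either replicate was 5.15 ± 1.32 CPM (SD, n = 3). The log2 difference between these 2 classes was 1.58 ± 0.15 (SD, n = 3), although the intersected set counts both as not open. Genes whose start lay inside a region had a median of 33.3 ± 2.26 CPM, and those with a region at 1 base to 1 kb had 25.7 ± 2.10 CPM (SD, n = 3). At the 1 kb limit itself, the 49 genes with a region at over 900 to 1000 bases had a median of 31.4 CPM and the 49 at over 1000 to 1100 bases had 16.3 CPM.

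The start used for a gene decided many of the calls for well expressed genes. The RNA table gives 1 outer start per gene, while the deposited RefSeq-type list held at least 1 start for 10264 of the table genes (72.4%). A gene open in the set had such an entry in 7060 of 7641 cases, a gene with no peak in 917 of 2844. Among those 917, a listed start lay within 1 kb of a region of the set in 573 (62.5%) and within 1 kb of a replicate 2 peak in 785 (85.6%). The list is labelled by ATAC-seq sums, and its starts were nearly all open in replicate 2. A listed start had such a peak in 99.8% of listed genes open in the set and 99.4% of those with a replicate 2 peak only. These shares therefore cannot tell how often a start outside the list would be open. In all, 813 genes were open at a listed start and not at the table start, and their median level was 29.8 ± 2.57 CPM (SD, n = 3), within 1 SD of the genes open at the table start. With either start counted, 8454 genes (59.6%) were open. The 2091 genes left with no region and no replicate 2 peak at the table start or a listed start had a median of 3.03 ± 0.90 CPM (SD, n = 3). Most of these genes had no listed start, so only their table start was examined.

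**Figure D2:**
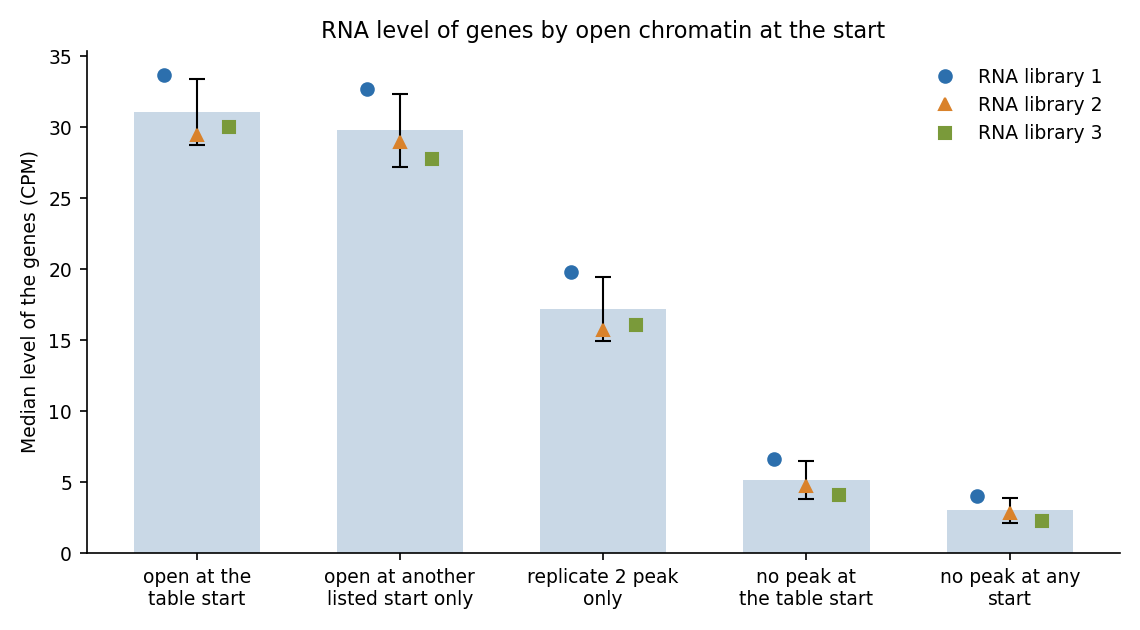
Bars give the mean over the 3 parental RNA libraries of the median gene level (CPM), with error bars of 1 SD, and symbols give each library. The classes overlap: most genes open at another listed start also belong to the replicate 2 class or the class with no peak at the table start. Most genes of the last class, labelled no peak at any start, also lie in the class with no peak at the table start. For most of them no other start was listed. Genes open at another listed start alone sit at 29.8 CPM beside 31.0 CPM for the genes open at the table start.

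Among the most abundant transcripts this showed gene by gene. EEF1A1, the elongation factor that brings aminoacyl-tRNA to the ribosome, had 3094, 3556 and 1859 CPM; its table start was 2526 bases from the nearest region and its listed start lay inside one. GNB2L1, the ribosome scaffold also known as RACK1, had 2439, 1581 and 2051 CPM, and its listed start was 162 bases from a region although its table start was 3786 bases away. The same held for HNRNPH1, RPL4, LDHB and CCT3, whose listed starts lay inside a region and whose table starts were over 10 kb from one. C1QBP, GNAS and XRCC5 had a replicate 2 peak at the listed start and no region there.

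Other highly expressed genes had no region of the set at any start given here. Of 140 genes off the mitochondrial chromosome at 500 CPM or more, 51 were not open at the table start, and 12 of these were open at a listed start. Of the rest, 32 had a replicate 2 peak at the table start or a listed one, and 7 had no peak at either. Of the 51 genes, 15 had no listed start, so only their table start was examined. Among the 7 with no peak, only XIST had a listed start. EEF2, which moves the ribosome along the message, had 3807, 3911 and 3686 CPM and a region no nearer than 14056 bases, yet a replicate 2 peak covered its start. GAPDH had 1610, 1420 and 2180 CPM and RPS3 had 1593, 1323 and 1119 CPM, again with a replicate 2 peak over the start. In these genes the levels were high in all 3 libraries, and the start had a peak in replicate 2 and none in replicate 1.

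The 10 genes of highest mean level among open starts were 2 small noncoding RNAs, 4 ribosomal protein genes and 4 others. RN7SK, the noncoding RNA that holds the elongation factor P-TEFb, had 23315, 16772 and 13586 CPM with a region 90 bases from its start, which also lay at the start of GSTA4. RN7SL2, an RNA of the signal recognition particle, had 6104, 1060 and 1444 CPM, so library 1 stood well above the other 2. Both have near-identical copies in the genome, and how the authors' counting shared such reads is not given in the sources used here.

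The ribosomal protein genes of this group had starts inside their regions. RPS4X had 2438, 3582 and 2956 CPM and a region of 242 bases at chrX:71497050-71497291. RPS6 had 3378, 1974 and 1378 CPM, with the high value in library 1, and a region of 296 bases at chr9:19380194-19380489. RPS2 had 1478, 1861 and 1824 CPM and RPL5 had 1794, 1315 and 1219 CPM. RPS3, which was not open, overlapped in level with RPS6, RPS2 and RPL5, and EEF2, also not open, lay above all 4 of these genes in every library.

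The other 4 genes of the group had other roles. NPM1 had 1823, 2650 and 2968 CPM, with a region of 551 bases at chr5:170814463-170815013 that began 343 bases after the table start. HSPA8, the constitutive heat shock protein, had 456, 2068 and 3815 CPM, the widest spread among them, with library 1 far below the other 2. HIST1H1E, a linker histone, had 2265, 1092 and 1279 CPM and a region 11 bases from its start. ENO1, the glycolytic enolase, had 1439, 927 and 1848 CPM with its start inside a region of 667 bases at chr1:8938760-8939426. Library 1 was the highest for RN7SK, RN7SL2, RPS6, RPL5 and HIST1H1E and the lowest for RPS4X, NPM1, HSPA8 and RPS2.

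UBR7, the gene the study is named for, had an open start with a region covering it. Its level was 55.0, 62.2 and 62.2 CPM in the 3 parental libraries.

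The share of open starts rose with expression. It was 28.5% of 505 genes under 1 CPM, 36.2% of 4295 genes at 1 to under 10 CPM, 61.8% of 7690 genes at 10 to under 100 CPM and 70.5% of 1687 genes at 100 CPM or more. When genes were put into these classes by each RNA library in turn, the SD of the 4 shares lay between 0.117 and 2.37 percentage points. With replicate 2 peaks the 4 shares were 50.1%, 64.7%, 87.6% and 90.3%, and with only starts inside a region of the set they were 15.8%, 21.7%, 42.6% and 51.7%. Among the genes at 100 CPM or more, 78.1% were open at the table start or a listed one.

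**Figure D3:**
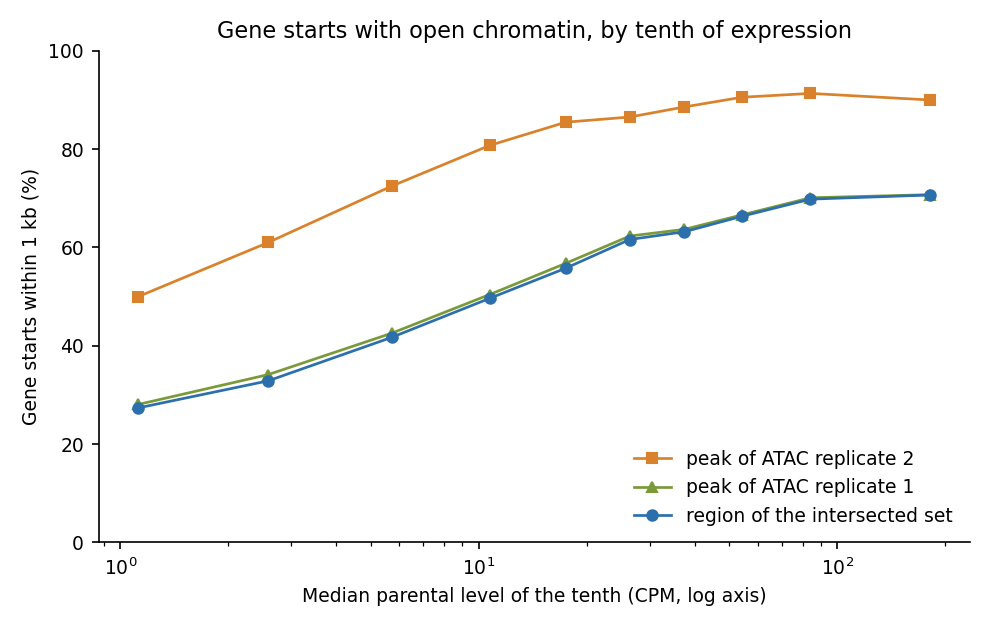
Each point is 1 of 10 equal groups of the 14177 genes by mean parental level; the horizontal axis gives the group's median level (CPM, log axis) and the vertical axis the percentage of gene starts within 1 kb of a region of the set (blue), a replicate 1 peak (green) or a replicate 2 peak (orange). The set rises from 27.4% in the lowest group to 70.7% in the highest and lies nearly on replicate 1, while replicate 2 rises from 50.0% to 90.0%.

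The curve over 10 equal groups by level was steeper at the low end. The set was at 55.8% in the group with a median of 17.5 CPM, at 66.3% in the one at 54.2 CPM and at 70.7% in the highest, at 182 CPM. In replicate 2 the share was 85.5% at 17.5 CPM and 90.0% in the highest group.

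Within open starts, the score of the region and the level of the gene were nearly unrelated, and the sign of the relation depended on the measure of strength. The Spearman correlation of score and level over the 7641 genes was 0.00756, 0.0121 and 0.0121 in the 3 libraries, a description across genes that are not independent replicates. The median level ran from 30.3 ± 2.43 CPM in the lowest of 4 equal groups by score to 31.3 ± 2.59 CPM in the highest (SD, n = 3). Within libraries the highest group was above the lowest by 0.045, 0.028 and 0.057 on the log2 scale, or 0.043 ± 0.014 (SD, n = 3). With score per kb of region in place of score, the correlation was −0.051 and the highest group was below the lowest, with a log2 difference of −0.29. Width followed level slightly more, with medians of 26.9 ± 1.97 CPM in the narrowest of 4 groups and 36.4 ± 2.20 CPM in the widest (SD, n = 3). PSMA4, a proteasome subunit, shows how a score can rest on 1 replicate: its region scored 346 with a −log10 q of 31.2 in replicate 2 and 3.42 in replicate 1.

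The 10 regions of highest score were mostly of 2 stretches and away from starts. On chromosome 1, 4 of them lay between positions 243596458 and 244377752, led by a region of 83 bases at chr1:244377670-244377752 that scored 460, the highest of the set, 163085 bases from the start of ZBTB18, a zinc finger repressor. Its −log10 q was 40.3 in replicate 1 and 5.79 in replicate 2. On chromosome 7, 4 lay between positions 116660100 and 120432329, and among them only the region at chr7:117824005-117824380 contained a start, that of NAA38, whose level was 49.6, 71.7 and 51.9 CPM. The other 2 were at PSMA4 and at chr1:713864-714533, at the start of RP11-206L10.2, whose level was low, at 2.12, 1.58 and 1.17 CPM.

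The 5 distal regions of highest score were all in these 2 stretches. One of them, at chr7:116660100-116660230, scored 386 and lay 65712 bases from ST7-AS1, an antisense RNA at 2.41, 1.26 and 0.480 CPM. In these 5 the −log10 q ran from 34.2 to 40.3 in replicate 1 and from 0.879 to 5.79 in replicate 2. The widest distal region, of 2808 bases at chr6:58776492-58779299, and the next, of 1941 bases at chr16:46391296-46393236, lay 488713 and 262302 bases from a start, scored 26 and 18, and had −log10 q between 0.884 and 1.67.

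Distal regions near a gene were not matched by a higher level where the start was open. Of the open genes, 879 had a distal region within 50 kb of the start and 6762 had none, and the difference of their median log2 levels was −0.059 ± 0.029 (SD, n = 3). It was 0.13 when regions within 20 kb were counted, −0.021 within 100 kb and −0.0035 without ATAC replicate 1, so its direction depended on the distance. Among genes not open at the start, the 993 with a distal region within 50 kb had a median log2 level 0.31 ± 0.03 (SD, n = 3) above the 5543 without. Of all distal regions, 29.0% lay at a start of the RefSeq-type list, and the part of such starts in the difference was not tested.

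By the rule, 5 genes were named for the number of distal regions around them. They do not stand for the level of such genes. With 3 or more distal regions within 50 kb, the 11 open genes had a median of 4.18 ± 0.54 CPM and the 12 not open 15.2 ± 2.18 CPM (SD, n = 3). HNRNPA1P1, a pseudogene in the histone cluster of chromosome 6, had 4 within 50 kb and a level of 2.26, 4.51 and 4.56 CPM. HNRNPF, an RNA-binding protein, had 3 and 218, 375 and 368 CPM. YY1, a zinc finger factor that binds many promoters, had 3 and an open start with 181, 147 and 187 CPM. HIST1H4H, a histone H4 gene with an open start, had 3 and 176, 91.1 and 128 CPM, and CIZ1, a nuclear zinc finger protein of DNA replication, had 3 and 93.3, 136 and 135 CPM.

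Divergent pairs, in which 2 genes start in opposite directions within 1 kb, were open more often than other genes. The table held 758 such pairs with a median gap of 130 bases, and both starts were open in 586 (77.3%), nearly always at the same region (584 pairs). Of the 12646 other nuclear genes 51.1% were open. With replicate 2 peaks the shares were 97.2% of pairs and 77.6% of other genes. The gap stood at each level among protein-coding genes: 71.3% against 33.2% under 10 CPM, 77.5% against 60.2% at 10 to under 100 CPM, and 86.6% against 69.6% at 100 CPM or more. A pair counts a region for both of its genes, so the 2 starts of a pair are not independent.

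Although most pairs shared 1 region, the levels of partners showed no common order across pairs. The Spearman correlation of partner levels over the 758 pairs was 0.0115, 0.00461 and −0.00552 in the 3 libraries. The 5 open pairs whose lower member was highest included 3 pairs of H2B and H2A histone genes. HIST1H2BJ and HIST1H2AG, 291 bases apart, shared a region of 421 bases at chr6:27100496-27100916; HIST1H2BJ had 677, 318 and 429 CPM and HIST1H2AG had 936, 505 and 756 CPM. HIST1H2BC had 457, 273 and 392 CPM and its partner HIST1H2AC had 790, 168 and 235 CPM. In all 4 of these histone genes library 1 was the highest and library 2 the lowest.

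The next pairs joined genes of replication, repair and chromatin. PRKDC, the catalytic subunit of the DNA-dependent protein kinase, had 812, 567 and 605 CPM and MCM4, a subunit of the replicative helicase, had 389, 424 and 480 CPM; their starts were 2 bases apart and the shared region of 228 bases began 553 bases inside MCM4. CBX5, the heterochromatin protein HP1 alpha, had 359, 319 and 227 CPM and HNRNPA1, a splicing regulator, had 610, 1153 and 974 CPM, with both starts inside a region of 974 bases at chr12:54673482-54674455. HIST1H2BK and HIST1H2AH completed the 5, with 346, 195 and 313 CPM and 404, 192 and 348 CPM.

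The base composition of the promoter went with the open call. Of the protein-coding genes off chromosome 8, 85.0% were matched to a RefSeq promoter window of 300 bases, 250 before and 50 after the start, with 87.7% of the open and 81.5% of the other genes matched. The share of open starts was 37.7% of the 154 genes under 40% GC and 36.6% at a GC content of 40 to 50%, rose to 64.9% at 70 to 75%, and fell to 40.6% at 80% and over. Genes at 10 to under 100 CPM showed the same rise and fall, from 41.2% through 70.5% to 44.1%. In replicate 2 the fall at the top was smaller, from 88.5% to 76.6%. With the table start or a listed start counted, the share was 53.9% under 40% GC and 49.0% at 40 to 50%. It was 70.3% at 70 to 75% and 45.5% at 80% and over, so the shares rose most in the 2 lowest classes. Counting more starts can only raise a share, and the listed starts were nearly all open in replicate 2. The size of the rise in a class therefore cannot be told apart from how many of its genes had another listed start.

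**Figure D4:**
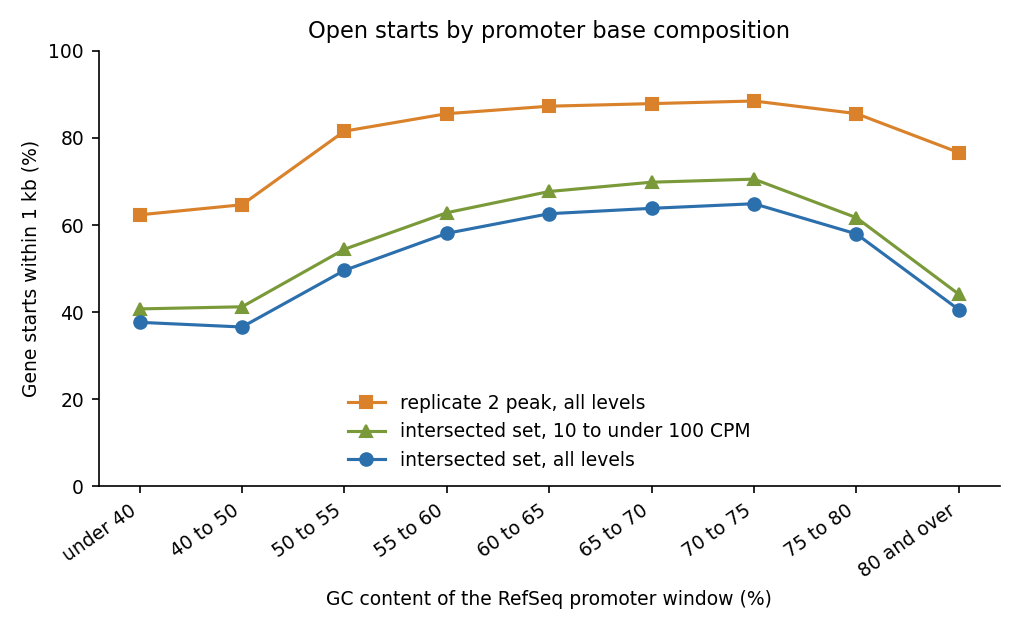
The horizontal axis gives classes of GC content of the 300-base RefSeq promoter window (%), the vertical axis the percentage of matched protein-coding gene starts within 1 kb of a region of the set (blue), of the set for genes at 10 to under 100 CPM (green) or of a replicate 2 peak (orange). All 3 lines are highest at 70 to 75% GC, where the set reaches 64.9%, and fall at 80% and over, where it is at 40.6%.

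Short sequence motifs were counted in the same windows on both strands, by exact letters. The open call was made at the table start and the windows were joined by gene name. A window, here and for GC content, therefore need not lie at the start that was called. Genes open only at a listed start count among the others. The CCAAT box (CCAAT) stood in 41.6% of the promoters of open starts and 30.8% of the others, against 35.7% of all 27305 RefSeq promoters of this length. The gap held among genes at 10 to under 100 CPM, with 41.2% and 30.2%. The ETS family core (CCGGAAG) stood in 21.8% and 15.9% (10.6% of all promoters) and the GC box (GGGCGGG) in 58.6% and 50.6% (32.7% of all). These 3 were more frequent at open starts over all levels. At 100 CPM or more the CCAAT box stood in 45.8% and 33.2% and the GC box in 55.9% and 49.9%, but the ETS core in 21.1% and 21.4%, so its excess was not seen there.

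The TATA box and AP-1 motifs went the other way. The TATA box (TATAAA) stood in 4.65% of open and 6.52% of other promoters (12.0% of all), and the AP-1 site (TGACTCA) in 2.01% and 3.25% (4.90% of all). The E-box (CACGTG) stood in 11.2% and 8.89% (7.41% of all), the YY1 core (AAGATGGC) in 5.82% and 4.78% (3.01% of all), and the CRE (TGACGTCA) in 3.61% and 2.97% (1.97% of all). At 100 CPM or more these last 3 were less frequent at open starts, with 11.4% and 13.1% for the E-box, 7.22% and 9.07% for the YY1 core and 3.86% and 4.53% for the CRE. No motif of these 8 contains another on either strand. A match describes letters in a window and not binding.

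The gene lists were read against the background of 53.9% of starts open in the set and 79.7% with a replicate 2 peak. The 26 lists held 711 genes, of which 554 were in the table and 304 (54.9%) were open. Widely expressed machinery stood above the background in the set. Of the genome architecture genes, which include the cohesin subunits and the insulator protein CTCF, 11 of 12 were open; SMC1A had 440, 765 and 508 CPM and STAG2 had 445, 488 and 371 CPM, while the cohesin loader NIPBL, at 79.0, 116 and 76.8 CPM, had a replicate 2 peak only. Of the sterol synthesis genes 18 of 22 were open, among them INSIG1 (89.1, 218 and 94.4 CPM), with a replicate 2 peak at 21. The spliceosome list had 24 of 32, with PRPF8 at 557, 637 and 679 CPM, and the replication-dependent histones 33 of 45. Nearly all of these genes had 10 CPM or more, a level at which 5942 of the 9377 starts of the whole table were open.

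Lists of growth and division lay a little above the background of all genes and between the shares of the 2 upper expression classes. Of the proteasome 21 of 31 were open, of mitosis 19 of 29, of translation factors 18 of 28, of histone chaperones 16 of 25 and of DNA replication 24 of 38, or 63.2% to 67.7%. All but 1 of their members had 10 CPM or more, where 61.8% (10 to under 100 CPM) and 70.5% (100 CPM or more) of the starts of the whole table were open. The highest translation factors not open were EEF2 and EEF1A1, with the values given above. In each of the other 4 lists the highest gene not open at its table start was PSMB4, a proteasome subunit, at 182, 101 and 177 CPM, TOP2A, the topoisomerase of chromosome segregation, at 533, 692 and 497 CPM, SET, a histone chaperone, at 643, 858 and 823 CPM, and MCM2, a helicase subunit that also binds histones, at 316, 302 and 395 CPM. These 4 had a replicate 2 peak within 1 kb, and a listed start of SET lay inside a region of the set. The snoRNA host genes had 11 of 15 open, with GAS5 at 569, 116 and 130 CPM and thus far higher in library 1.

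The ribosomal protein and glycolysis genes were highly expressed and yet not above the background in the set. Of the cytosolic ribosomal protein genes 39 of 78 were open, at a list median of 533 CPM, but 74 of 78 had a replicate 2 peak. The 39 open genes had a median of 466 CPM and the 39 others 559 CPM. Of the glycolysis genes 5 of 17 were open and 13 had a replicate 2 peak; with listed starts counted 9 of 17 were open, including ALDOA and LDHB. The nuclear genes of the respiratory chain had 24 of 44 open and 41 with a replicate 2 peak. With listed starts counted, 31 of these 44 and 42 of the 78 ribosomal protein genes were open, against 59.6% of all table genes. For these lists the 2 ATAC libraries gave different pictures of the same starts.

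Regulators of development were seldom open in the set although many were expressed. Of the HOX genes, which set position along the body axis, 34 of 39 were in the table, 7 were open and 21 had a replicate 2 peak. HOXD13 was open with 58.1, 95.0 and 79.5 CPM, and HOXA10 with 73.0, 47.3 and 48.1 CPM. HOXB9 had the highest level among the HOX genes not open, with 203, 219 and 137 CPM and a replicate 2 peak over its start. Of the kidney development regulators 4 of 19 were open and 14 had a replicate 2 peak: SALL1 was open at 31.1, 31.8 and 33.7 CPM, SIX2 was open at 7.59, 5.37 and 24.1 CPM, and FOXC1 was not, at 278, 301 and 173 CPM.

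Genes that respond to signals were split. Of the immediate early genes 10 of 21 were open and 12 had a replicate 2 peak. JUN was open with 387, 198 and 191 CPM, while ATF3 had 151, 53.0 and 16.4 CPM and no peak at its table start. Of the interferon-stimulated genes 12 of 23 were in the table and 3 were open, STAT2 (34.1, 29.8 and 15.5 CPM) among them.

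Marker genes of differentiated cells gave the check of the label. Of 20 renal tubule and glomerulus markers 6 were in the table and 1 was open, PTPRO at 1.24, 1.04 and 0.858 CPM. The list median was 2.61 CPM, and 2 of the 6 had 10 CPM or more without an open start: PODXL, a podocyte surface protein, at 35.9, 64.4 and 26.9 CPM, and LRP2, the endocytic receptor megalin, at 30.6, 39.0 and 22.8 CPM. Of 25 neuronal markers 10 were in the table, 4 were open and 9 had a replicate 2 peak. UCHL1 was open at 100, 101 and 140 CPM and NEFL at 65.3, 113 and 105 CPM. The neurofilament gene NEFM was not, at 62.3, 206 and 60.4 CPM, with a replicate 2 peak 510 bases from its start. Of the 13 mesenchymal markers that the table held, 5 were open and 11 had a replicate 2 peak. The intermediate filament VIM was open at 487, 528 and 821 CPM, while the repressor ZEB1 was not, at 54.5, 76.1 and 40.2 CPM. Of the 9 epithelial markers that the table held, 2 were open and 6 had a replicate 2 peak. The tight junction protein OCLN was open at 56.7, 41.3 and 32.2 CPM, while the desmosome protein DSP was not, at 156, 235 and 173 CPM. A replicate 2 peak covered the starts of ZEB1 and DSP. Of 15 blood markers 3 were in the table, with a median of 1.01 CPM, and of 10 liver markers 0 were. Of 10 endothelial markers 1 was in the table, FLT1, at 25.5, 20.9 and 11.6 CPM. Its start was not open in the set, but a replicate 2 peak covered it. The table holds only genes that passed the authors' filter, which is not given in the sources used here.

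**Figure D5:**
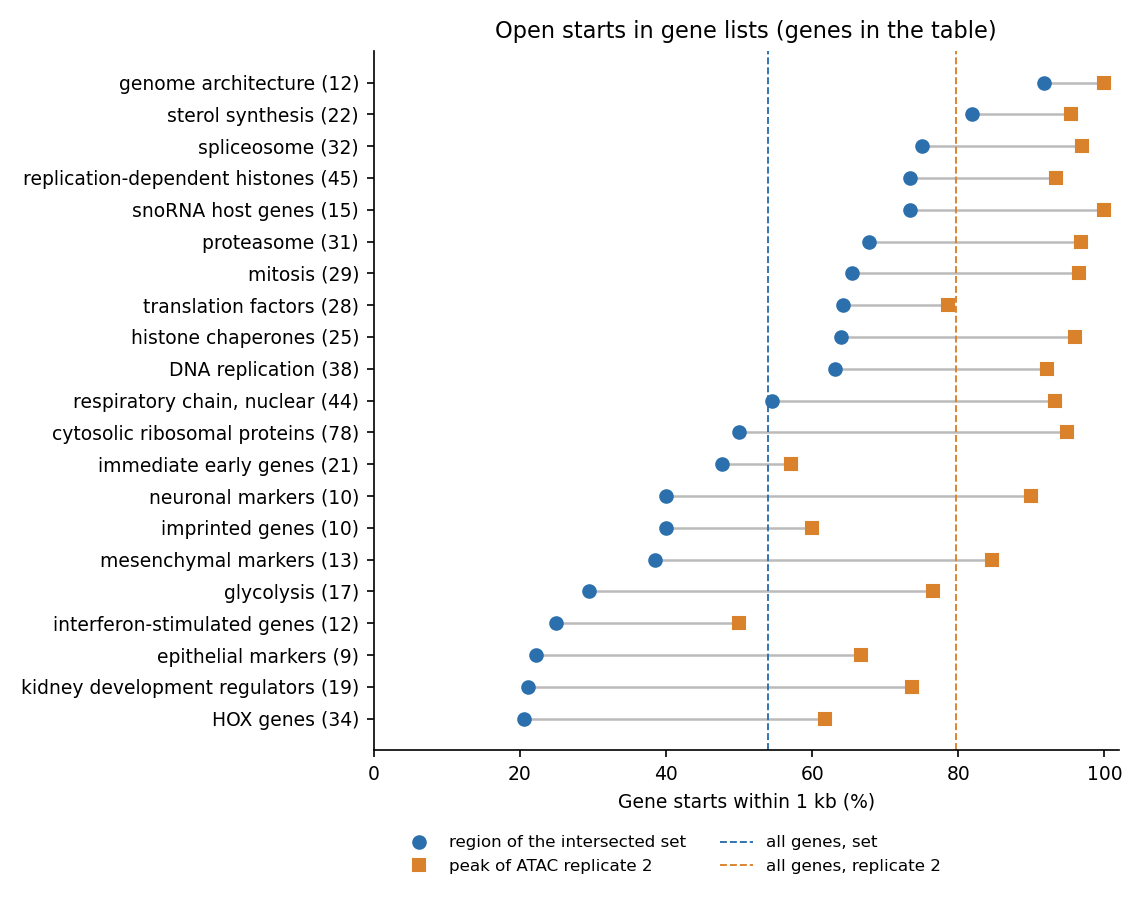
Each row is a gene list with at least 9 members in the table (21 of 26 lists; the number in parentheses counts its members there). The horizontal axis gives the percentage of starts within 1 kb of a region of the set (blue circles) and of a replicate 2 peak (orange squares), and the dashed lines mark the same for all genes, 53.9% and 79.7%. Genome architecture and sterol synthesis lie highest in the set and HOX genes lowest, and ribosomal proteins are below the line in the set and above it in replicate 2.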

How the data were processed

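The deposited RNA table holds CPM, which the authors scaled from reads per gene to the library total; the 3 parental libraries had 22153291 to 29141652 reads, recovered from the steps of the values (100% whole within 0.001 read), with 17.7% to 25.4% on the mitochondrial chromosome. Broad peaks were called per library, per the file headers and names; each carries the authors' −log10 q and score, and the authors' intersected set carries summed scores. Per the submitters' processing notes, which give no roles, MACS2, bedtools, Bowtie2 2.3.1, HTSeq 0.6.1 and TopHat2 2.1.0 and the builds hg19 and hg38 were used. Transposase shift, duplicate removal and ATAC-seq depth are not given in the sources used here. Only 5.57% of 13240 genes had a GRCh38 RefSeq gene start within 10 kb of the table's, so file positions are GRCh37-type.

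Distances ran from a gene start to the nearest region edge (0 inside). Levels were medians of log2(CPM + 1), or of CPM, per library, given as mean ± SD over libraries. pandas 2.3.3, matplotlib 3.10.9, scipy 1.17.1 and numpy 2.4.6 were run under Python 3.11.15, and the distance functions were tested on simulated data. Transcripts of the RefSeq-type list were named through RefSeq (97.7% of 20661 accessions). Named genes were the 10 highest open starts, the 10 highest-score and 5 highest-score distal regions, up to 3 genes per list, 5 divergent pairs, 5 genes with most distal regions and the highest genes without a region; the genes not open at 500 CPM or more, the widest regions and UBR7 were added after their values were seen. Some named genes are not reported here. The members and lists were chosen with earlier results of these data known. Alternatives covered the distance, replicate, score, start list, pseudocount and filter.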

Additional observations from a re-analysis of the deposited data

How the results depend on the processing

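No paired analysis was possible because all samples form 1 group and no result comes from a test. Of 99 alternative values of the summary results, 43 stayed within the spread of the value reported, 53 moved beyond it and 3 changed sign. The spread was 1 SD over libraries or the 95% binomial interval. For the count of open genes over all lists it was a limit of 1.5 times. Leaving out 1 of 3 RNA libraries cannot move a mean over libraries beyond 1 SD, so those values were bound to stay. For the width ratio the limit was the SD of the 2 replicate values that it judged. The binomial interval takes genes, regions or pairs as independent, which they are not, so these counts are only a rough guide. The share of open starts was 36.4% with the start inside a region, 58.1% at 5 kb, 29.0% with the regions in the upper part by score, 54.8% for genes of at least 1 CPM, and, chosen after seeing the data, 59.6% with listed starts and 12.1% with q of at most 0.05 in both replicates; leaving out an ATAC replicate gave 54.5% to 79.7%. The share of regions within 1 kb of a start was 46.3% at 0 bases, 69.7% at 5 kb, 67.1% in the upper part by score, 75.1% with RefSeq-type starts, 67.9% with the q limit and 26.2% to 62.6% without a replicate. The distal share was 30.3% at over 5 kb, 15.1% at over 50 kb, 21.7% with RefSeq-type starts, 25.3% with the q limit and 30.2% to 65.4% without a replicate. The log2 difference between open and other genes was 1.16 at 0 bases, 1.28 for genes of at least 1 CPM, 0.67 with the q limit, 1.66 with listed starts, 1.10 for protein-coding genes, 1.72 and 0.98 in the shortest and longest genes, and 1.36 to 2.16 without a library. The correlation of score and level was −0.0511 for score per kb, 0.0176 and 0.0143 for −log10 q of replicates 1 and 2, and 0.00982 to 0.0121 without a library; the difference between the highest and lowest groups by score was −0.29 for score per kb and 0.037 to 0.051 without a library. The width ratio was 1.45 to 2.89 without a replicate. For the 4 expression classes from low to high, the open share was 15.8%, 21.7%, 42.6% and 51.7% at 0 bases, 33.7%, 40.8%, 65.8% and 74.7% at 5 kb, and 40.1%, 68.5% and 78.1% in the upper 3 with listed starts; without a library the ranges were 26.4% to 50.1%, 35.6% to 64.7%, 61.6% to 87.6% and 70.1% to 90.3%. Divergent pairs were open in 77.4% to 97.2% without a replicate. The difference by nearby distal regions was 0.13 at 20 kb, −0.021 at 100 kb and −0.071 to −0.0035 without a library. With the overlap taken as 0.5 of the peak, 88.6% and 16.5% of the peaks of replicates 1 and 2 were met by the other. Open genes over the lists were 305 to 478 without a replicate. Single lists kept their count within 1.5 times in 89 of 104 alternatives. The causes were not tested. The planned level per kb of exon was not run, since the width given in the table exceeds the gene span for 2188 genes. The unknown ATAC-seq depth limits every absent call to not detected.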

Other observations

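The share of open starts differed between chromosomes. It was highest on chromosome 4, with 67.0% of 525 genes, and lowest among the autosomes on chromosomes 19 (40.6% of 949 genes), 15 (41.3% of 472), 22 (42.9% of 343) and 17 (43.0% of 876). With replicate 2 peaks chromosome 4 had 86.1% and chromosome 19 had 73.6%. On chromosome 19 the ZNF genes, which encode zinc finger repressors, were open in 30.1% of 186 and the other genes in 43.1% of 763, while ZNF genes of other chromosomes were open in 62.3% of 244. Their replicate 2 shares were 75.8%, 73.0% and 85.2%.

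Classes of noncoding genes differed too. Antisense RNA genes were open in 50.5% of 455 at a median level of 2.05 CPM, lincRNA genes in 35.7% of 412, pseudogenes in 28.1% of 359 and snoRNA genes, which lie mostly in introns of host genes, in 9.09% of 55. The small nuclear RNA genes were open in 16 of 24 and had a replicate 2 peak in 95.8%. Without strand information for the counting, reads of an antisense gene and its partner cannot be told apart.

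Among the highest values without a region, 2 pseudogenes were uneven over libraries. CTD-2328D6.1 had 61289, 54669 and 237 CPM, and AC010970.2 had 3738, 4464 and 13.7 CPM, both high in libraries 1 and 2 and low in library 3; the labels of libraries 1 and 2 carry date codes and that of library 3 carries none. The mitochondrial ribosomal RNAs MT-RNR2 (132336, 180292 and 204328 CPM) and MT-RNR1 (38274, 26230 and 42592 CPM) were high in all 3.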
